A study of Mus musculus with 2 samples.

Results

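The potassium channel genes of the mouse are those whose symbols start with Kcn, and they were read here in the midbrain on the day of birth. Members were taken by symbol alone: each protein-coding gene whose identifier GENCODE names with that prefix, 94 of the 21474 protein-coding genes among 69691 features. Their levels had no part in the choice. The study is a single group of 2 newborn mice of strain B6NCrl (postnatal day 0), called pup 1 and pup 3 in the labels, with no treatment or allele named. One total RNA library was made from each midbrain, with 10 ng of RNA and a size range above 200 nt. The labels give 1 donor identifier for both animals, and the sex was not recorded. Nothing was contrasted between conditions, so levels are given in TPM (a per-length measure of transcript abundance, scaled within a library) for pup 1 and then pup 3, or as mean ± SD over 2 animals.

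Potassium channels let potassium ions leave or enter a cell down their electrochemical gradient, which sets the resting potential and ends action potentials. Voltage-gated members open on depolarisation, inward rectifiers pass current best near rest, two-pore channels leak, and a further set opens with intracellular calcium or sodium. Pore-forming subunits assemble around a common selectivity filter, while silent subunits and auxiliary proteins change how, where and how fast the pore opens. Young neurons shift this set of genes as their firing matures.

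The filter is what the pore-forming members share and what separates them from the auxiliary ones, so its coding bases are shown for 1 gene of each main kind, mostly high ones. They are 45 bases of the GENCODE M21 coding transcript with the largest share in these libraries, 5′ to 3′, with the 5 filter codons in capitals.

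Kcna6: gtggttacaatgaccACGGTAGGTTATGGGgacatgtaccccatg
Kcnd2: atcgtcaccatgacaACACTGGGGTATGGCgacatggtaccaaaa
Kcnh2: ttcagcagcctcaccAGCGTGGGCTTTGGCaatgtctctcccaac
Kcnma1: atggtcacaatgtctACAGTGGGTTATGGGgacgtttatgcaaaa
Kcnt1: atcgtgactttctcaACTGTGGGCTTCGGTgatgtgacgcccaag
Kcnj13: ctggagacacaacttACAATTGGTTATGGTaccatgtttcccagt
Kcnk10, first pore: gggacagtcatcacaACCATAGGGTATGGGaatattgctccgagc
Kcnk10, second pore: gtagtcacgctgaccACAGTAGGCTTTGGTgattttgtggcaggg

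The Kcna6 window lies at chr6:126738632-126738676, minus strand, and that of Kcnh2 at chr5:24325540-24325584, minus strand. For Kcnma1 it is chr14:23528398-23528442 (minus), for Kcnt1 chr2:25894352-25894396 (plus) and for Kcnj13 chr1:87389006-87389050 (minus), all in GRCm38. Those of Kcnd2 and Kcnk10 each span 2 coding exons. The fourth filter codon was TAT, for tyrosine, in Kcna6, Kcnd2, Kcnma1, Kcnj13 and the first pore of Kcnk10. It was TTT or TTC, for phenylalanine, in Kcnh2, Kcnt1 and the second pore of Kcnk10. The search was for codons of threonine or serine, then valine, isoleucine or leucine, then glycine, then tyrosine, phenylalanine or leucine, then glycine. In the longest complete coding sequence of each gene in M21, whether or not the deposited tables list that transcript, 77 of 77 members outside the auxiliary class held at least 1 match and 12 held 2, all of them two-pore genes. None of the 17 auxiliary members held one, and 1.35% of 21326 protein-coding genes did.

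The family was broadly read, at low to moderate levels. In both pups 67 of 94 members (71.3%) reached 1 TPM, where 62.1% of all protein-coding genes passed. At 10 TPM or more there were 19 (20.2%) against 39.2% of all genes, and at 20 TPM or more there were 9 (9.57%) against 28.5%. The median member was at 3.35 ± 0.166 TPM and the median protein-coding gene at 4.61 ± 0.127. A single member, Kcnk18, had 0 counts in both pups (1.06%), a state that 17.0% of all protein-coding genes shared. Summed over the family the level was 711 TPM in pup 1 and 725 in pup 3, or 0.0718% ± 0.000945 of all TPM. Within that sum the 10 highest members held 50.8% ± 0.162 and Kcnip1 alone 17.2% ± 0.276. Midbrain tissue holds many cell types, so fewer cells of a type and less RNA per cell cannot be told apart.

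**Figure D1:**
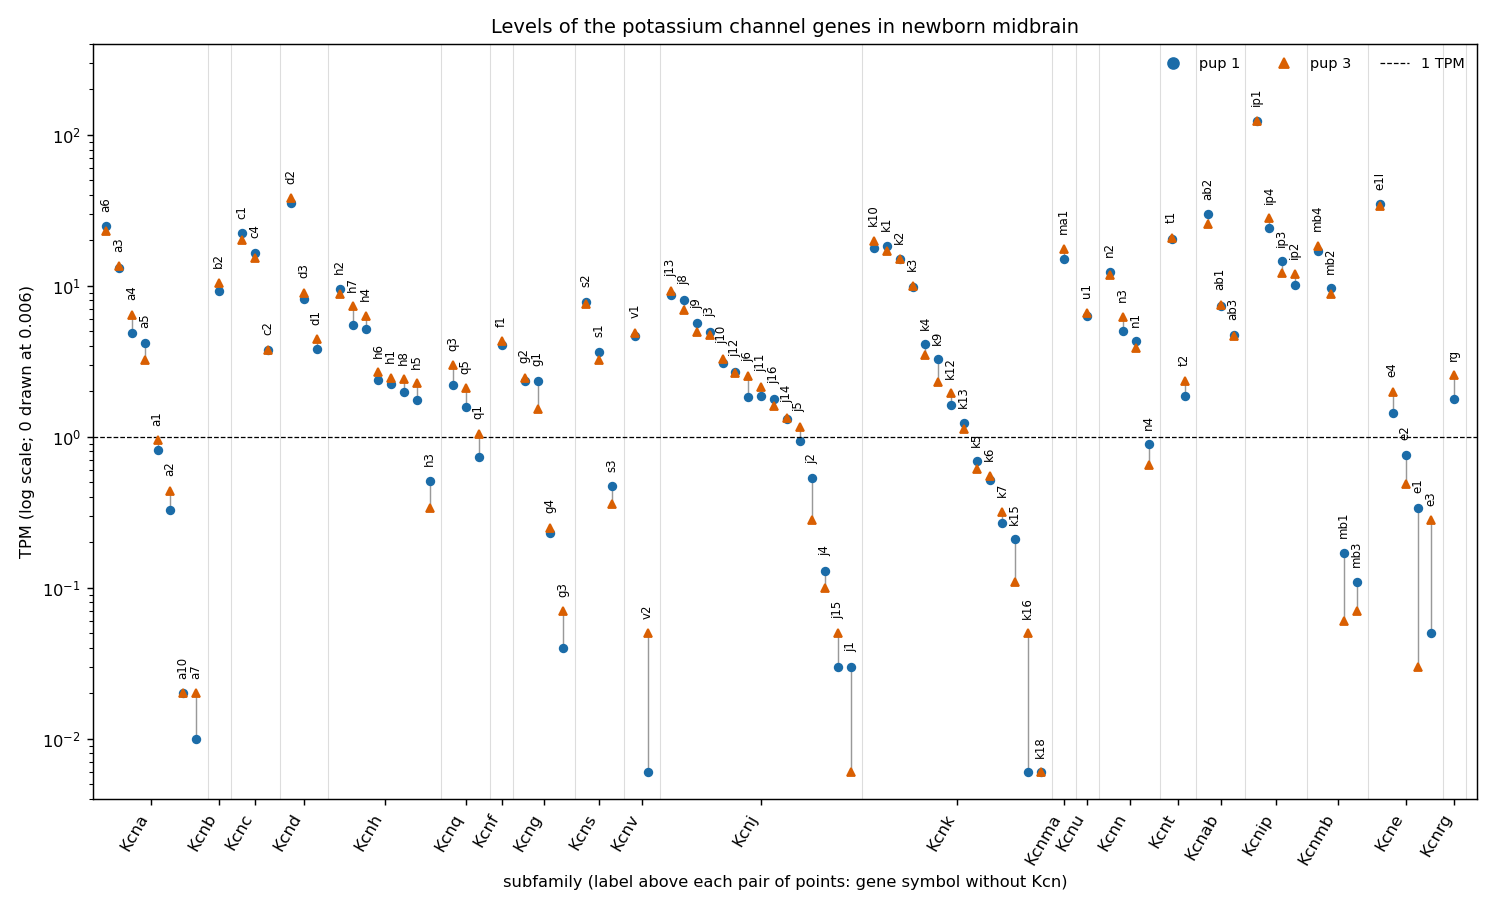
Level of 90 potassium channel genes in TPM (log axis; 0 drawn at 0.006), by subfamily, with a circle for pup 1 and a triangle for pup 3 joined by a line. Kcnip1 stands alone above 100 TPM, most members are above the dashed line at 1 TPM, and the points of a member part visibly mainly among those below 1 TPM.

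Depth was 36934868 expected counts in pup 1 and 40769103 in pup 3, of which the family held 48640 and 54952. Of the marker lists of the tissue, 6 of 6 neuronal and 6 of 6 dopamine neuron markers reached 1 TPM in both libraries, with Th, the enzyme that limits dopamine synthesis, at 29.8 and 22.3 TPM. Astrocyte and radial glia (6 of 6), microglia (5 of 5), endothelium (4 of 4) and pericyte and smooth muscle markers (5 of 5) passed too, and of the oligodendrocyte lineage 5 of 6 did, Mog being below 1. Forebrain and hypothalamus markers were also present, 8 of 9 at 1 TPM or more. Of the ependyma and choroid plexus list 2 of 4 passed, with Ttr, the main choroid plexus transcript, at 0.85 and 5.16 TPM and Kl at 0.41 and 0.33.

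By class, auxiliary subunits held the largest sum, 281 and 280 TPM over 17 genes, and voltage-gated channels came next with 224 and 237 TPM over 30 genes. Two-pore channels followed at 73.0 and 72.3 TPM (14 genes), calcium- or sodium-activated channels at 66.4 and 69.9 (8 genes), inward rectifiers at 41.6 and 40.9 (15 genes) and silent subunits at 25.6 and 24.8 (10 genes). Without Kcnip1 the auxiliary sum was 157 and 156 TPM, below that of the voltage-gated channels. The order was the same in both pups, and the values of neighbours in it did not overlap. No inward rectifier and no silent subunit reached 10 TPM in both pups.

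**Figure D2:**
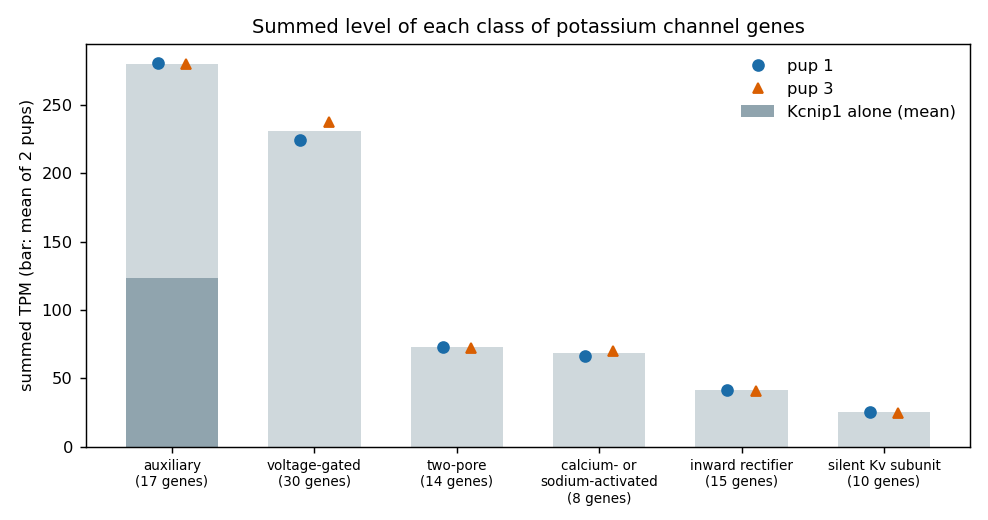
Summed TPM of each class of potassium channel genes; bars are means of the 2 pups, circles pup 1 and triangles pup 3, with the darker segment for Kcnip1 alone. The auxiliary class leads at 280 TPM, of which Kcnip1 is 124, and the voltage-gated class follows at 231.

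Among voltage-gated channels 24 of 30 members reached 1 TPM in both animals, and Kcnd2 led. Kcnd2 forms the pore of fast-inactivating A-type currents in dendrites (ENSMUSG00000060882.5, chromosome 6, 21215503 to 21729805, plus strand) and was at 35.2 and 38.0 TPM on 4115 and 4848 counts. Its relatives were lower in both pups, Kcnd3 at 8.16 and 8.97 and Kcnd1 at 3.82 and 4.43. Among the Kcnq genes, Kcnq3, a pore subunit of the slow M-current that restrains repetitive firing, was at 2.19 and 2.97 TPM and Kcnq5, a relative with a similar current, at 1.58 and 2.10. Kcnq1, a channel of heart and inner ear, was lowest of the subfamily by TPM at 0.74 and 1.05, below its deposited credibility intervals of 1.02 to 3.92 and 1.17 to 3.98. That rank did not hold for the posterior mean, another deposited estimate of TPM. By it Kcnq1 was at 2.34 and 2.46, Kcnq5 at 1.85 and 2.27 and Kcnq3 at 2.25 and 3.01.

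The shaker-related genes, Kcna, were uneven. Kcna6, a delayed rectifier subunit, led at 24.9 and 22.9 TPM, followed by Kcna3 at 13.1 and 13.5, Kcna4 at 4.86 and 6.42 and Kcna5 at 4.19 and 3.23. Kcna1 and Kcna2, the axonal subunits of the mature brain, were at 0.82 and 0.95 TPM and at 0.33 and 0.44 TPM. Neither reached 1 TPM in either pup, although Kcna1 rested on 168 and 214 counts. The Kcna1 transcript is 8970 nt long in the deposited annotation and 4031 nt in M21. That of Kcna2 is 3456 nt and 11582 nt, so the TPM of both genes depends on the annotation. Kcna10 and Kcna7 were at the bottom with 1 or 2 counts in each pup, at or under the 3 counts that a reading of 0 would allow.

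Of the Kcnc genes, which support fast spiking, Kcnc1 was at 22.3 and 20.1 TPM and Kcnc4 at 16.5 and 15.3, and Kcnc2 (3.74 and 3.77) was lower in both pups. Kcnb2, a delayed rectifier of the soma and proximal dendrite, was at 9.31 and 10.5 TPM. In the ether-a-go-go group Kcnh2, which also repolarises the heart, led at 9.59 and 8.82 TPM, then Kcnh7 at 5.49 and 7.31 and Kcnh4 at 5.19 and 6.34, and Kcnh3 was lowest at 0.51 and 0.34. The ranges of Kcnh7 and Kcnh4 over the pups overlapped.

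Silent subunits form no working pore alone and join Kcnb channels. Of 10, 6 reached 1 TPM in both animals. Kcns2 was highest at 7.86 and 7.63 TPM, Kcnv1 followed at 4.63 and 4.89 and Kcnf1 at 4.05 and 4.30. Kcns1 was at 3.67 and 3.24, Kcng2 at 2.33 and 2.47, and Kcng1 at 2.36 and 1.54. Below 1 TPM lay Kcns3 (0.47 and 0.36), Kcng4 (0.23 and 0.25), Kcng3 (0.04 and 0.07) and the retinal Kcnv2, with 0 counts in pup 1 and 6 in pup 3.

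Of the inward rectifiers 10 of 15 reached 1 TPM in both animals. Kcnj13, known from retinal pigment epithelium and choroid plexus, read highest at 8.67 and 9.18 TPM, on 235 and 272 counts that were not whole numbers. An exon of Kcnj13 overlaps one of Gigyf2 on the opposite strand by 355 bases, and Gigyf2 was at 39.1 and 38.2 TPM. Strandedness of the counting is not given in the sources used here, so the part of Gigyf2 reads in the Kcnj13 value was not tested. Kcnj8, the pore of ATP-sensitive channels in vessel walls, was at 8.05 and 6.94 TPM, and its neuronal counterpart Kcnj11 at 1.85 and 2.14. G-protein-activated channels were present as Kcnj9 (5.64 and 4.95 TPM), Kcnj3 (4.98 and 4.71), Kcnj6 (1.83 and 2.52) and Kcnj5 (0.94 and 1.16). Kcnj6, the subunit known for dopamine neurons, was below Kcnj3 and Kcnj9 in both pups. The glial Kcnj10 was at 3.07 and 3.30 TPM and its partner Kcnj16 at 1.78 and 1.60. Kcnj1, of the kidney, had 2 counts in pup 1 and 0 in pup 3.

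Two-pore leak channels were led by 3 genes of similar level. Kcnk10 (17.8 and 19.8 TPM) and Kcnk2 (14.96 and 15.05) are stretch- and lipid-sensitive relatives, and Kcnk1 (18.4 and 17.0) is a weak leak channel. Kcnk10 and Kcnk1 overlapped over the pups, and Kcnk2 was lowest of the 3 in both. The acid-sensitive Kcnk3 was at 9.90 and 9.96 TPM and its relative Kcnk9 at 3.27 and 2.32. The Kcnk9 transcript is 1209 nt long in the deposited annotation and 12300 nt in M21, so its TPM depends on the annotation. Kcnk18, a channel of sensory ganglia, had 0 counts in both pups, which allows up to 0.0442 TPM in pup 1 and 0.0405 in pup 3. In all, 8 of 14 reached 1 TPM in both animals.

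Channels opened by calcium or sodium were at 1 TPM or more for 7 of 8 genes. The sodium-activated Kcnt1 led at 20.4 and 20.8 TPM and its relative Kcnt2 was at 1.87 and 2.35. Kcnma1, the large-conductance calcium-activated pore, was at 15.2 and 17.5 TPM. Small-conductance channels, which shape the pause after a spike, were ordered Kcnn2 (12.4 and 11.8), Kcnn3 (5.06 and 6.26) and Kcnn1 (4.28 and 3.86), with Kcnn4, a channel of blood cells and epithelia, at 0.89 and 0.65. Kcnu1, known as a sperm channel, read 6.32 and 6.63 TPM on 166 and 198 counts. Its leading transcript, Kcnu1-202, encodes 381 residues where the longest encodes 1121, and the transcript with the filter codons held 0.01 of 6.48 TPM. For Kcnh7 the leading transcript Kcnh7-203 (522 residues of 1195 in the longest) likewise lacks the filter codons, and the filter-bearing transcript held 0.72 of 6.40 TPM. Kcnj8 is the remaining pore-forming member whose leading transcript lacks them: the tables list only Kcnj8-201, which M21 ends after 127 residues, and not Kcnj8-202, where M21 has them. That Kcnj8-201 is 2188 nt long in the tables and 2269 nt in M21, so its coding sequence in the tables' annotation cannot be told from M21.

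Auxiliary subunits contained the highest member. Kcnip1, a calcium-binding protein that attaches to Kcnd channels and raises their surface level (ENSMUSG00000053519.11, chromosome 11, 33629339 to 33993152, minus strand), was at 124 and 123 TPM on 4942 and 5409 counts. Kcnip4 (24.2 and 28.0), Kcnip3 (14.5 and 12.1) and Kcnip2 (10.18 and 12.01) were lower, the last 2 at nearly the same level in pup 3. Kcne1l, a single-span subunit gene on chromosome X (142304752 to 142306294, minus strand), was the second auxiliary gene at 34.6 and 33.6 TPM. The remaining single-span genes were far lower: Kcne4 at 1.44 and 1.98 TPM, Kcne2 at 0.76 and 0.49, and Kcne1 and Kcne3 on 1 to 5 counts in a pup. Kcnab2, a beta subunit of Kcna channels, was at 29.7 and 25.7 TPM, Kcnab1 at 7.35 and 7.46 and Kcnab3 at 4.74 and 4.63. The deposited interval of Kcnab2 in pup 1, 29.9 to 34.2 TPM, began just above its TPM value. Kcnmb4, the neuronal subunit of Kcnma1, was at 17.1 and 18.5 TPM and Kcnmb2 at 9.64 and 8.86. The smooth muscle subunit Kcnmb1 had 16 and 6 counts (0.17 and 0.06 TPM) and Kcnmb3 4 and 3 counts. Kcnrg, a regulator of voltage-gated channels, was at 1.77 and 2.56 TPM.

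Ratios within a library were then compared for 29 gene pairs of related function. A pair was called apart where the log2 ratio of TPM (0.1 added) had 1 sign in both pups, a mean beyond 1 and 3 SD, and deposited credibility intervals that did not overlap in either pup. With 2 animals the smallest p of an exact sign-flip test is 0.5, so no p is reported. By this rule 18 pairs were apart and 11 were not. The rule was not applied to other gene pairs, so that count cannot be called particular to these pairs. The largest ratio was Kcnmb4 over Kcnmb1, the neuronal over the smooth muscle subunit, at 6.43 ± 0.61 on the log2 scale. Kcna3 exceeded Kcna1 by 3.76 ± 0.11, Kcnip1 exceeded Kcnip2 by 3.47 ± 0.17, and Kcnt1 exceeded Kcnt2 by 3.24 ± 0.20. Kcnd2 was above Kcnd1 by 3.12 ± 0.07 and above Kcnd3 by 2.08 ± 0.02. All ratios rest on the deposited transcript lengths, which differ from those of M21 for Kcna1, Kcna2, Kcnk9 and further genes of the pairs. Among the latter, Kcnc2 has 6196 nt (5046 nt in M21), Kcnc4 3013 (3667) and Kcns2 4360 (5456). The leading coding transcript of Kcnj6 has 1773 nt (2362 in M21). That of Kcnj11 has 1173 nt (917 in M21, where it is marked as incomplete at an end).

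In 3 of the pairs that were apart the gene named second was the higher one. Kcnj11 over Kcnj8 was -1.86 ± 0.29, Kcnn1 over Kcnn2 -1.55 ± 0.05 and Kcna2 over Kcna1 -1.03 ± 0.10. Pairs that were not apart included Kcnk1 and Kcnk2 (0.23 ± 0.09), Kcnh1 and Kcnh5 (0.22 ± 0.15), and Kcnip3 and Kcnip2 (0.26 ± 0.35). Several calls rested on pup 1. Without it Kcna2 over Kcna1 was -0.96, Kcnj3 over Kcnj6 was 0.88 and Kcnn2 over Kcnn3 was 0.90, none past 1, while Kcnj6 over Kcnj5 (1.06) and Kcnmb4 over Kcnmb2 (1.05) passed. Without pup 3, Kcnj6 over Kcnj9 (-1.57) passed. With a pup left out no SD exists, so that condition was dropped. For coding transcripts the credibility intervals were not applied. On coding transcripts alone Kcna6 over Kcna4 was 0.98, Kcnn1 over Kcnn2 -0.97 and Kcnn2 over Kcnn3 0.67, again short of 1, while Kcnj6 over Kcnj9 (-1.01), Kcnma1 over Kcnn2 (1.01) and Kcnab1 over Kcnab3 (1.03) passed. With 1 added in place of 0.1, which shrinks ratios of low genes further, 4 pairs fell short: Kcns2 over Kcns1 (0.97), Kcnn2 over Kcnn3 (0.98), Kcnj3 over Kcnj6 (0.89) and Kcna2 over Kcna1 (-0.44).

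**Figure D3:**
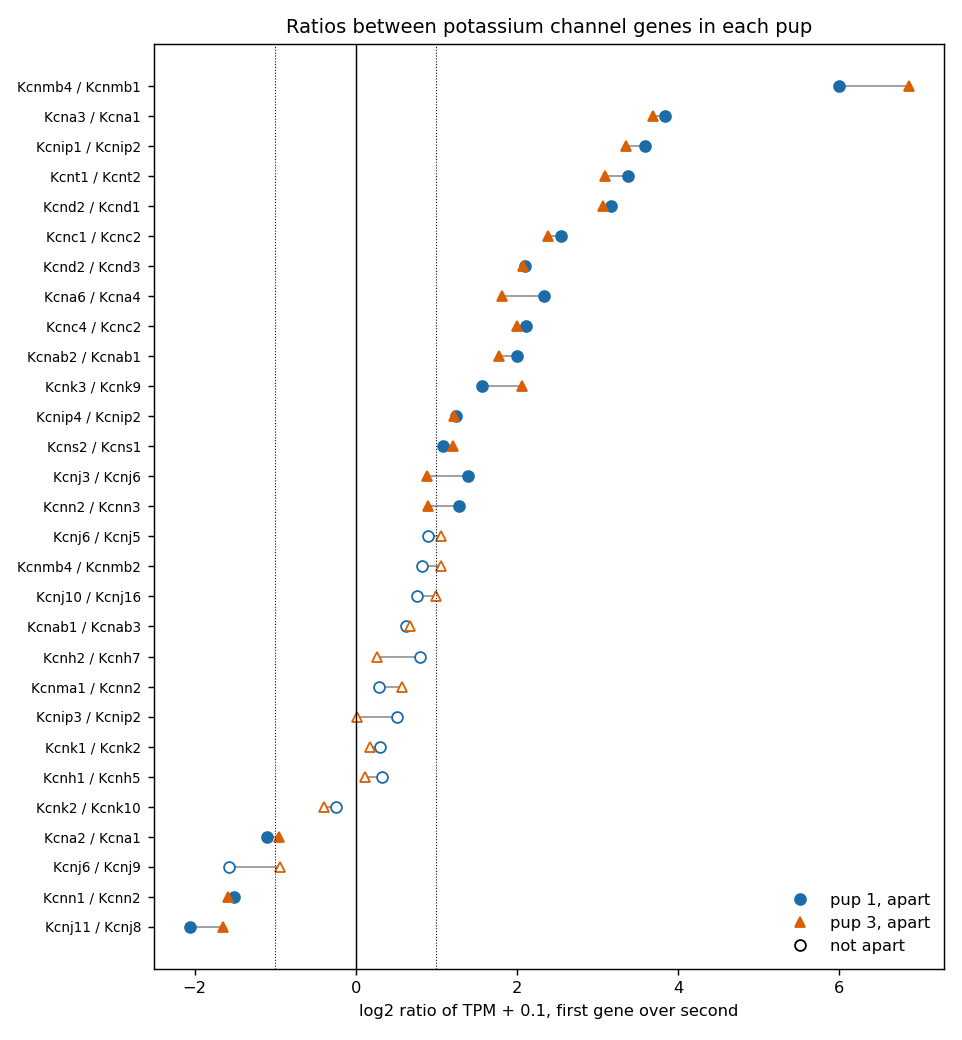
Log2 ratio of the first gene over the second (TPM with 0.1 added) for 29 pairs, circle for pup 1 and triangle for pup 3, filled where the pair was apart; dotted lines mark 1 and -1. The pairs run from 6.43 for Kcnmb4 over Kcnmb1 to -1.86 for Kcnj11 over Kcnj8, and 18 are filled.

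Transcript estimates split each level among transcripts by their annotated type, which does not tell whether a coding transcript holds the whole channel. Of the 67 members that reached 1 TPM in both animals, 22 have a single annotated transcript and 45 have more. The leading transcript was the same in both pups for 42 of those 45, where 91.0% of protein-coding genes of that kind agreed. It differed for Kcnip1, Kcna6 and Kcnk13. For Kcnip1 this was a near tie, Kcnip1-201 holding 48.7% and 45.7% of the gene's TPM and Kcnip1-203 46.2% and 48.1%. The 2 encode 216 and 227 residues. For Kcnk13 the transcripts in question all encode 405 residues. For Kcna6 the lead passed from Kcna6-201, annotated as subject to nonsense-mediated decay (43.5% in pup 1 and 6.60% in pup 3), to the coding Kcna6-204 (23.5% and 68.6%). These transcripts are 5827 and 5836 nt long and hold coding sequences of equal length, 529 residues, so the split of reads between them is uncertain.

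A noncoding transcript led in both pups for 2 members, Kcnc1 and Kcnt1, where it did so in 8.57% of all such genes. Kcnc1-202, a processed transcript of 531 nt, held 46.7% and 38.2% of the Kcnc1 TPM, ahead of the coding Kcnc1-201 at 26.3% and 32.8%. That lead is per length. In counts Kcnc1-202 had 104 and 83.9 of the gene's 1521 and 1765, and the longer Kcnc1-201 had 1037 and 1278. For Kcnt1 a retained-intron transcript, Kcnt1-208, held 27.8% and 18.8% and the coding Kcnt1-201 22.4% and 13.7%. Coding transcripts carried under 75% of the level in 6 members: Kcnt1 (40.3% and 43.3%), Kcna6 (26.5% and 70.5%), Kcnc1 (53.3% and 61.8%), Kcnd1 (61.0% and 55.4%), Kcnn2 (67.7% and 65.5%) and Kcnab3 (55.7% and 78.6%). Counting coding transcripts only, mean levels were 8.63 TPM in place of 20.6 for Kcnt1, 11.4 in place of 23.9 for Kcna6 and 12.2 in place of 21.2 for Kcnc1. That of Kcna6 averages 6.59 TPM in pup 1 and 16.15 in pup 3, and rests on the uncertain split named above. All 67 members stayed at 1 TPM or more on that count.

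**Figure D4:**
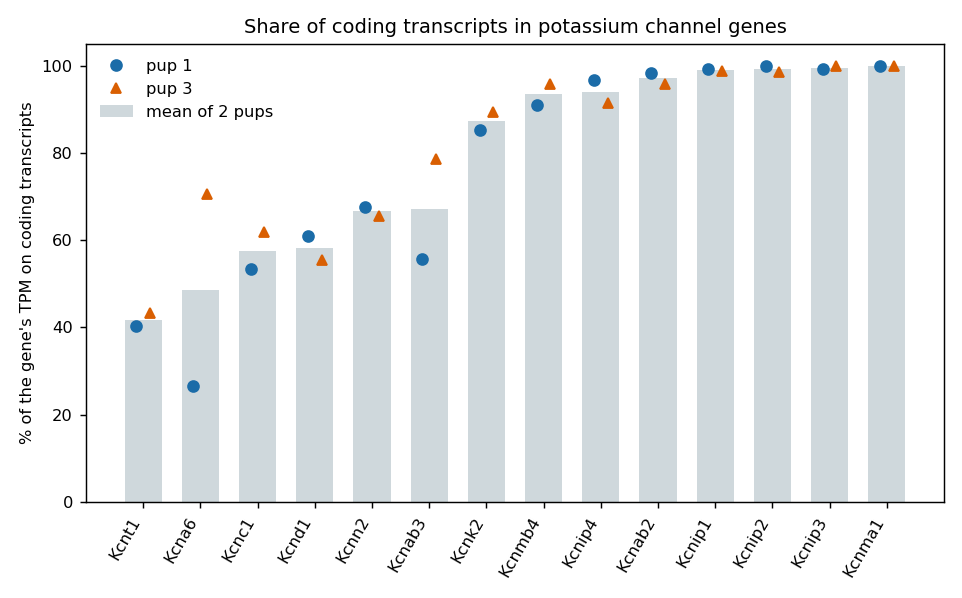
Percent of each gene's TPM on transcripts annotated as coding, for named members at 10 TPM or more with several transcripts plus Kcnd1, Kcnn2 and Kcnab3; bars are means of the 2 pups, circles pup 1 and triangles pup 3. Kcnt1 is lowest at 41.8% and Kcna6 has the widest gap between pups, 26.5% against 70.5%.

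Neighbouring members on a chromosome often differed in level. No background of other pairs was taken, so such differences cannot be called particular to neighbours. Adjacent members within 200 kb of one another formed 10 pairs, 18 genes in all. On chromosome 3 Kcna3, Kcna2 and Kcna10 stand in a row, at 13.3, 0.385 and 0.02 TPM, so Kcna3 was 34.4 times as high as Kcna2. On chromosome 6 Kcna5, Kcna1 and Kcna6 were at 3.71, 0.885 and 23.9 TPM. Kcnip1 and Kcnmb1 overlap on chromosome 11 at 124 and 0.115 TPM. The closest in level were Kcnj9 and Kcnj10 on chromosome 1, at a ratio of 1.66.

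The start regions of the chromosome 3 row are shown because Kcna2 was low beside a start that holds many CG dinucleotides. Each is the 250 bases before the RefSeq start (GRCm38.p6, plus strand), with CG dinucleotides in capitals.

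Kcna3, chr3:107035912-107036161: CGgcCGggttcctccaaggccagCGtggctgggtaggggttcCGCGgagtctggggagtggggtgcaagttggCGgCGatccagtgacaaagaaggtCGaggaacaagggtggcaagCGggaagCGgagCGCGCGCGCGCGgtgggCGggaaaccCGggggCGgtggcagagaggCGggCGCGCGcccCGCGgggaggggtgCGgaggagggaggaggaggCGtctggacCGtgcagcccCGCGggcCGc
Kcna2, chr3:107101317-107101566: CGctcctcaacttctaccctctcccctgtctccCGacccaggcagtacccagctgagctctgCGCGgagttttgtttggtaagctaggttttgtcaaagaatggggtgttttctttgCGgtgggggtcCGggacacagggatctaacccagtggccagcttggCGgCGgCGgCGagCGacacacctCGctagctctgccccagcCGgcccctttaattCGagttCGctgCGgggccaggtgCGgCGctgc
Kcna10, chr3:107182893-107183142: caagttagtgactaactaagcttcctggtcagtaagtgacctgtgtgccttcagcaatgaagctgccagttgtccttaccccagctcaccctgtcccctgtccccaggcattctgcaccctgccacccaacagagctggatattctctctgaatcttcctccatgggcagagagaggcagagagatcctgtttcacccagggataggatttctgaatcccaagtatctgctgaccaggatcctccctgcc

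These stretches hold 31 CG for Kcna3, 18 for Kcna2 and 0 for Kcna10. Over the 300-base windows of the RefSeq table (50 bases past the start included) the counts were 37, 31 and 0. So Kcna2, read at 0.33 and 0.44 TPM, had a CG-rich start like that of Kcna3. A window was found for 69 of 94 members. Those that reached 1 TPM in both animals had a median of 12 CG (n = 48) and those below it 8 (n = 21), while over all protein-coding genes the medians were 21 (n = 10435) and 3 (n = 5882). At least 10 CG were counted in 38.1% of the low members and in 17.5% of all low genes. The low members with at least 10 were Kcng3 (49), Kcnj4 (41), Kcna2 (31), Kcnk5 (26), Kcnk15 (24), Kcnj2 (18), Kcnj5 (10) and Kcnk7 (10). CG is its own reverse complement, so both strands give one count.

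Some counts were shared with genes on the other strand. Among 90 members with a count in both pups, 11 (12.2%) had counts that were not whole (tolerance 0.005), as did 25.2% of protein-coding genes. All 11 have an exon that overlaps one of a gene on the opposite strand. An exon overlap with any gene was found for 22 of the 90, and none of the other 68 had counts that were not whole. They were Kcna6, Kcnd3, Kcnh7, Kcnq1, Kcnq5, Kcnj3, Kcnj9, Kcnj13, Kcnk2, Kcnn2 and Kcnmb4. Those overlapping genes that are in the tables read from 0 to 39.1 TPM in pup 1, the highest being Gigyf2 at Kcnj13 and the next A430027H14Rik at Kcnk2 (7.38 and 7.59 TPM).

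Differences between the pups were read for the 63 members averaging at least 100 counts. Their median size was 0.15 on the log2 scale, and 0.11 over all protein-coding genes with as many counts. None of the 63 was past 1 on the log2 scale in either direction, where 0.135% of 12620 protein-coding genes were higher and 0.0713% lower in pup 3. At a threshold of 0.5, chosen after seeing the values, none was higher (2.10% of all genes) and 1 was lower (0.586%), Kcng1, a silent subunit, at 2.36 and 1.54 TPM (-0.58). Its counts, 194 and 155, gave -0.47 per library total with an exact binomial 95% interval of -0.78 to -0.15, which covers counting error only. Next among the lower ones were Kcna5 (-0.37), Kcnip3 (-0.26), Kcnk4 (-0.23) and Kcnj8 (-0.21). The higher ones were Kcnj6 (0.44), Kcne4 (0.43), Kcnq3 (0.42), Kcnh7 (0.41) and Kcna4 (0.39). Their count intervals were 0.02 to 0.84 for Kcnj6, -0.06 to 0.77 for Kcne4 and 0.23 to 0.54 for Kcnq3. For Kcna4 the counts alone gave 0.20.

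The members' median difference was 0.07 and 39 of 63 (61.9%) were higher in pup 3, as were 54.4% of all genes. By TMM-scaled counts 37 of 63 members and 46.4% of all genes were higher, and with DESeq2 size factors 37 and 46.7%. Voltage-gated channels were higher in 19 of 25 genes with a median of 0.16, and in 20 of 25 by TMM-scaled counts. In the 4 measured Kcnq genes the median was 0.33 in TPM, and in the 7 measured Kcnh genes 0.27. Medians by counts were not taken for these subfamilies. By counts per library total Kcnq3 stayed at 0.38, while Kcnq5 went from 0.39 in TPM to 0.03. The medians of the other classes lay between -0.03 and 0.07 in TPM, and that of the two-pore genes went from 0.01 in TPM to -0.03 by TMM-scaled counts. By TMM-scaled counts the median was 0.11 for voltage-gated and 0.10 for calcium- or sodium-activated genes, so these classes were close. Those of the remaining classes lay between -0.05 and -0.01 on that scaling. With a single library per animal no replicate check exists for these differences. Beside them, forebrain and hypothalamus markers summed to 90.5 TPM in pup 1 and 169 in pup 3, higher in 8 of 9 genes, and endothelial markers to 145 and 124 TPM, lower in 4 of 4. Neuronal markers summed to 732 and 761 TPM. Dopamine neuron markers summed to 102 and 89.4 TPM, lower in 4 of 6 genes. Pericyte and smooth muscle markers summed to 172 and 151 TPM, higher in pup 3 in 2 of 5 genes. Those of ependyma and choroid plexus summed to 14.7 and 19.9, higher in 2 of 4. Astrocyte and radial glia markers summed to 2970 and 2813 TPM, higher in 2 of 6. Oligodendrocyte lineage markers summed to 204 and 191, higher in 1 of 6, and microglia markers to 118 and 107, higher in 1 of 5. The part of these shifts in the channel genes' differences was not tested.

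**Figure D5:**
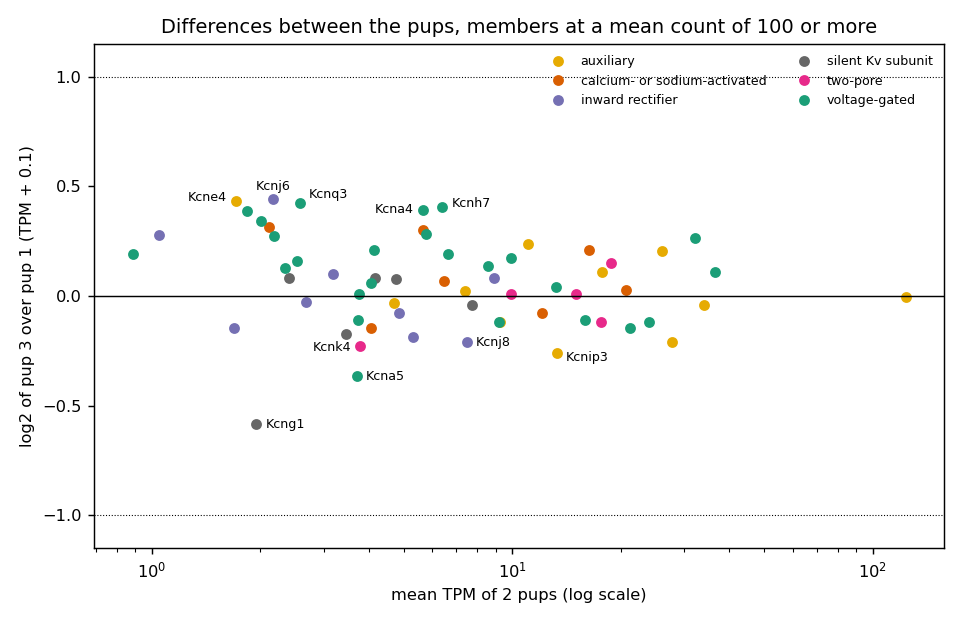
Log2 ratio of pup 3 over pup 1 (TPM with 0.1 added) against the mean TPM (log axis) for the 63 members at a mean count of 100 or more, coloured by class; the 5 most different in each direction are named and dotted lines mark 1 and -1. All points lie between -0.58 (Kcng1) and 0.44 (Kcnj6).

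Proteins that work with potassium channels were read from a separate list of 24 genes. Of these, 21 reached 1 TPM in both animals, with a median level of 16.0 TPM, and of the 21 at a mean count of 100 or more none differed by more than 1 between pups. Dpp6 and Dpp10, which join Kcnip proteins on Kcnd channels, were at 77.6 and 74.1 TPM and at 25.0 and 25.4. Cntnap2, which anchors Kcna channels beside the node of Ranvier, was at 36.2 and 34.8 TPM. Ank3, the ankyrin that holds Kcnq3 at the axon initial segment, was at 41.2 and 55.9 TPM. Adam22, a Kcna-associated membrane protein, was at 35.2 and 40.3. The sulfonylurea receptors that complete ATP-sensitive channels were low, Abcc8 at 3.39 and 3.67 and Abcc9 at 1.61 and 1.88. Of the leucine-rich subunits of Kcnma1, Lrrc55 was at 6.35 and 6.61 TPM, and Lrrc26, Lrrc38 and Lrrc52 were below 1 TPM.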

How the data were processed

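Total RNA libraries of 2 newborn midbrains were read from the deposited gene and transcript tables. Per the deposited text record, reads were aligned to the transcriptome of mm10 with GENCODE annotation M4. The program, its version and the strandedness of the counting were not given in the sources used here. The column headings match RSEM output. Expected counts per gene, deposited by the authors, are estimates of assigned reads. The TPM columns deposited by the authors divide by effective length and add up to the same total in each library. The deposited transcript tables give each transcript's percent of its gene's TPM. The deposited bounds of the credibility interval were read as signal on the TPM scale, and their level is not stated. The posterior mean of TPM is a separate deposited column, and TPM can lie outside bounds that hold that mean. For Kcnq1 in pup 1 the TPM was 0.74, the posterior mean 2.34 and the bounds 1.02 to 3.92.

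Symbols, biotypes, coding sequences and coordinates came from GENCODE M21 (the same build), matched by identifier without version: 297 of 300 member transcripts were found, 227 of equal length. Start regions came from RefSeq (GRCm38.p6). Member sets, lists, pairs and tests were chosen with earlier results of these data known.

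Ratios are log2 of TPM with 0.1 added to both terms, which shrinks those of low genes. Differences between pups were read for genes averaging at least 100 counts. Intervals on counts are exact binomial at 95%, and a count of 0 allows 3 counts, both for counting error only, since these reads are not independent molecules. The labels give separate animals, so the SD covers 2 animals with 1 library each. Named with values are the 3 highest and the lowest members of each subfamily, members at 20 TPM or more, genes of preset pairs, the 5 most different between pups in each direction and those with 0 counts. The leading transcripts of members at 10 TPM or more are named too, with partner genes from a list. Kcnu1 transcripts, neighbouring members, exon overlaps and CG-rich starts were added after their values were seen. Antisense genes of the family (5) were left out. Some members and the preset pairs that hold them are not reported here by name, but they count in the family's totals.

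Alternatives were other detection levels and pseudocounts, posterior means, counts not divided by length, coding transcripts only, each pup left out, and scaling of counts (rounded to whole numbers) by edgeR 4.0.16 (TMM) and DESeq2 1.42.0. The rest was run in Python 3.11.15 with SciPy 1.17.1, pandas 2.3.3, numpy 2.4.6, Biopython 1.88 and matplotlib 3.10.9, and in R 4.3.3.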

Additional observations from a re-analysis of the deposited data

How the results depend on the processing

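The number of members at 1 TPM or more in both pups ranged from 67 to 69 when a pup was left out, the percent of TPM from 0.0711 to 0.0725 and the number of pairs apart from 17 to 19. The other settings gave 14 pairs apart (pseudocount of 1) to 22 (counts not divided by length), around the 18 reported. The 22 were called without the credibility intervals. The family's share of 0.0718% became 0.0861% of the TPM of nuclear protein-coding genes alone, 0.133% of counts not divided by length and 0.0655% on coding transcripts only. Without the filter on counts, 2 members were past 1 between pups, Kcne1 and Kcne3 on 1 to 5 counts, and at the threshold of 0.5 there was 1, Kcng1. Among members at 10 TPM or more, 11 of 13 kept their leading transcript between pups. With counts not divided by length, 3 ratios changed sign, none of them apart: Kcnj6 over Kcnj5 (-0.071), Kcnk1 over Kcnk2 (-0.23) and Kcnk2 over Kcnk10 (0.00021). That setting compares genes of different length, and the cause was not tested further. Over all settings, 204 pair values kept their sign and call, 12 passed only there, 12 fell short and 3 changed sign. With a pup left out the SD condition was dropped. For coding transcripts and for counts not divided by length the interval condition was dropped. Passing in these settings is therefore not passing the full rule. The differences named between pups moved beyond their counting error in 2 of 40 values, both for Kcna4 (0.19 by either count scaling). No paired analysis was possible because there is 1 group. Low members are limited by depth: 3 counts are worth 0.0442 TPM for Kcnk18 in pup 1.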

Other observations

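The 5 antisense genes that share the family's symbols were read apart from it. Kcnmb4os2 was at 2.76 and 3.37 TPM in pups 1 and 3, Kcnd3os at 1.90 and 1.71, and Kcnab3os at 0.83 and 0.76. Kcnq1ot1, the imprinted antisense RNA of Kcnq1, was at 0.60 and 1.03 TPM on 1168 and 2188 counts. Kcnmb4os1 had 0 counts in both pups. Exons of Kcnmb4os1 and Kcnmb4os2 overlap those of Kcnmb4, exons of Kcnd3os those of Kcnd3, and exons of Kcnq1ot1 those of Kcnq1, and the counts of these 3 members were not whole.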
